A study of Caenorhabditis elegans with 2 samples.

Results

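The nuclear-encoded genes of the mitochondrial respiratory chain were examined for binding of DPL-1 in Caenorhabditis elegans. Members were taken by name from the Ensembl 115 annotation of WBcel235, as nuclear protein-coding genes whose symbol starts with nuo-, cox-, ucr-, sdh-, atp-, asb- or asg-, together with gas-1, isp-1, cyc-1 and mev-1. The rule gave 39 of 19973 nuclear protein-coding genes. They comprised 31 genes for chain or ATP synthase subunits and 8 cox- genes for assembly of complex IV, so the set holds chain subunits and the factors that build one complex. No gene starts with the literal prefix sdh-, and the succinate dehydrogenase genes sdha-1, sdha-2, sdhb-1 and sdhd-1 were therefore counted apart.

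The data are chromatin immunoprecipitation with sequencing (ChIP-seq) from whole young adult worms of pooled sexes, in 1 group of 2 biological replicates. Per the labels, both replicates came from strain YL390, which is unc119(ed3) on chromosome III and carries the insertion vrIs48, in which DPL-1 fused to GFP and FLAG is driven by the pie-1 promoter and ends in the UTR of dpl-1, beside an unc-119(+) marker. The sample descriptions give the target as eGFP-dpl-1, the tagged fusion, while the antibody field names dpl-1. The strain is a single insertion line. The pie-1 promoter is known for germline expression, and whole worms were used, so a peak cannot be assigned to a tissue. Peak lists hold no read counts, so the depth is unknown, and the control was not analysed here. The optimal list, filtered by the irreproducible discovery rate (IDR), held 1546 peaks on ce11, of which 1522 were nuclear. It was identical to the 1546 peaks of highest signal in the pooled list of 30000, so a place in it does not show detection in each replicate. A gene was counted as bound when the summit of an optimal peak lay from 1000 bp upstream to 500 bp downstream of 1 of its annotated transcript starts. Signal is the value the authors' peak caller gave, and rank 1 is the peak of highest signal within a list. With 1 group no test across samples could be made, and members are not replicates, so counts are set beside the same counts over all nuclear genes or peaks and no p-value is given.

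The respiratory chain moves electrons from NADH (through complex I) or succinate (through complex II) to ubiquinone, then through complex III and cytochrome c to complex IV, which reduces oxygen. Complexes I, III and IV pump protons across the inner mitochondrial membrane, and the ATP synthase uses that gradient to make ATP. Some core subunits are encoded by the mitochondrial genome and the other subunits by nuclear genes. DPL-1 is the DP partner of E2F-type factors and part of the DREAM complex, which is best known for repressing cell cycle genes. Mitochondria are abundant in the C. elegans germline and oocytes.

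The sequences under 5 bound summits are shown as examples of the letters beneath the peaks. They come from complexes II, III and IV, complex IV assembly and the ATP synthase, with none from complex I. Each is the strongest bound peak of its group among those for which sequence is shown, and for the ATP synthase that is atp-2, since the stronger atp-1 peak is not shown. Each stretch covers the 201 bases within 100 bp of the summit and overlaps no annotated gene. Capitals mark matches to the CHR-type motif (TTNGAA in which N is C or T, on either strand, so that TTCAAA also counts). None holds the E2F-type motif (TTNNCGC in which each N is C or G, on either strand).
cox-5A (ce11 chrIII:12905108-12905308, plus strand): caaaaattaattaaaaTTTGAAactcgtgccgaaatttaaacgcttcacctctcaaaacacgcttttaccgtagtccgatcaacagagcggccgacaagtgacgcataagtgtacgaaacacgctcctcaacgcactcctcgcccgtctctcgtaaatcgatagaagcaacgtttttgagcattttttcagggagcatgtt
mev-1 (ce11 chrIII:10334060-10334260, plus strand): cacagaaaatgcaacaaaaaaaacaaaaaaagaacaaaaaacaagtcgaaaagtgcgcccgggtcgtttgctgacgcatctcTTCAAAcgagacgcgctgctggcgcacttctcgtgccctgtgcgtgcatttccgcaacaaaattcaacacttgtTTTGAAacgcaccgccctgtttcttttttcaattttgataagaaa
atp-2 (ce11 chrIII:5228061-5228261, plus strand): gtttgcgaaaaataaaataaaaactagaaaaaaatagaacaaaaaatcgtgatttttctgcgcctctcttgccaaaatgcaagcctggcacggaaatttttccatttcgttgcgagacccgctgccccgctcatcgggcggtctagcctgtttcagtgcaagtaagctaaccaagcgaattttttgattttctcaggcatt
ucr-1 (ce11 chrIII:5591887-5592087, plus strand): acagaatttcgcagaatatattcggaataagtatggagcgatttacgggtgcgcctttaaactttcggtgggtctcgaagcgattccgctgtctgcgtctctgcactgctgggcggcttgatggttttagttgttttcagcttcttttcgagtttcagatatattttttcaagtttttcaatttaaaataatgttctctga
cox-14 (ce11 chrIII:10218657-10218857, plus strand): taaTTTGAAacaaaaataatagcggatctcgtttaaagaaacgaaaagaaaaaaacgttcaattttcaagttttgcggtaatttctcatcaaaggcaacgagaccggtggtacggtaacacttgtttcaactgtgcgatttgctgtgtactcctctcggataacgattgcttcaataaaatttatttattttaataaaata
The mev-1 stretch holds 2 CHR-type matches, those of cox-5A and cox-14 hold 1 each near the edge of the window, and those of atp-2 and ucr-1 hold none.

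Of the 39 members, 14 (35.9%) were bound, against 9.16% of all nuclear protein-coding genes (1830 of 19973). The bound members were nuo-1 and nuo-2 of complex I, mev-1 of complex II, ucr-1, isp-1 and cyc-1 of complex III, cox-5A, cox-5B and cox-6B of complex IV, the assembly gene cox-14, and atp-1, atp-2, atp-3 and asg-1 of the ATP synthase. Each had its own peak. Without the assembly genes, 13 of 31 subunit genes (41.9%) were bound. A ChIP peak of the pooled list of 30000, of any strength and background included, lay in the window of 36 members (92.3%), against 50.3% of all nuclear genes. Among genes with such a peak, 14 of 36 members (38.9%) were bound, against 18.2% of all. The choice of list moved the count most. Only 7 members (17.9%) had 1 of the 773 strongest peaks, against 5.07% of all genes, and 23 (59.0%) had 1 of the 3092 strongest pooled peaks, against 14.6%. Counting a peak only for the gene with the nearest start left 9 members (23.1%), against 6.32% of all genes.

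**Figure D1:**
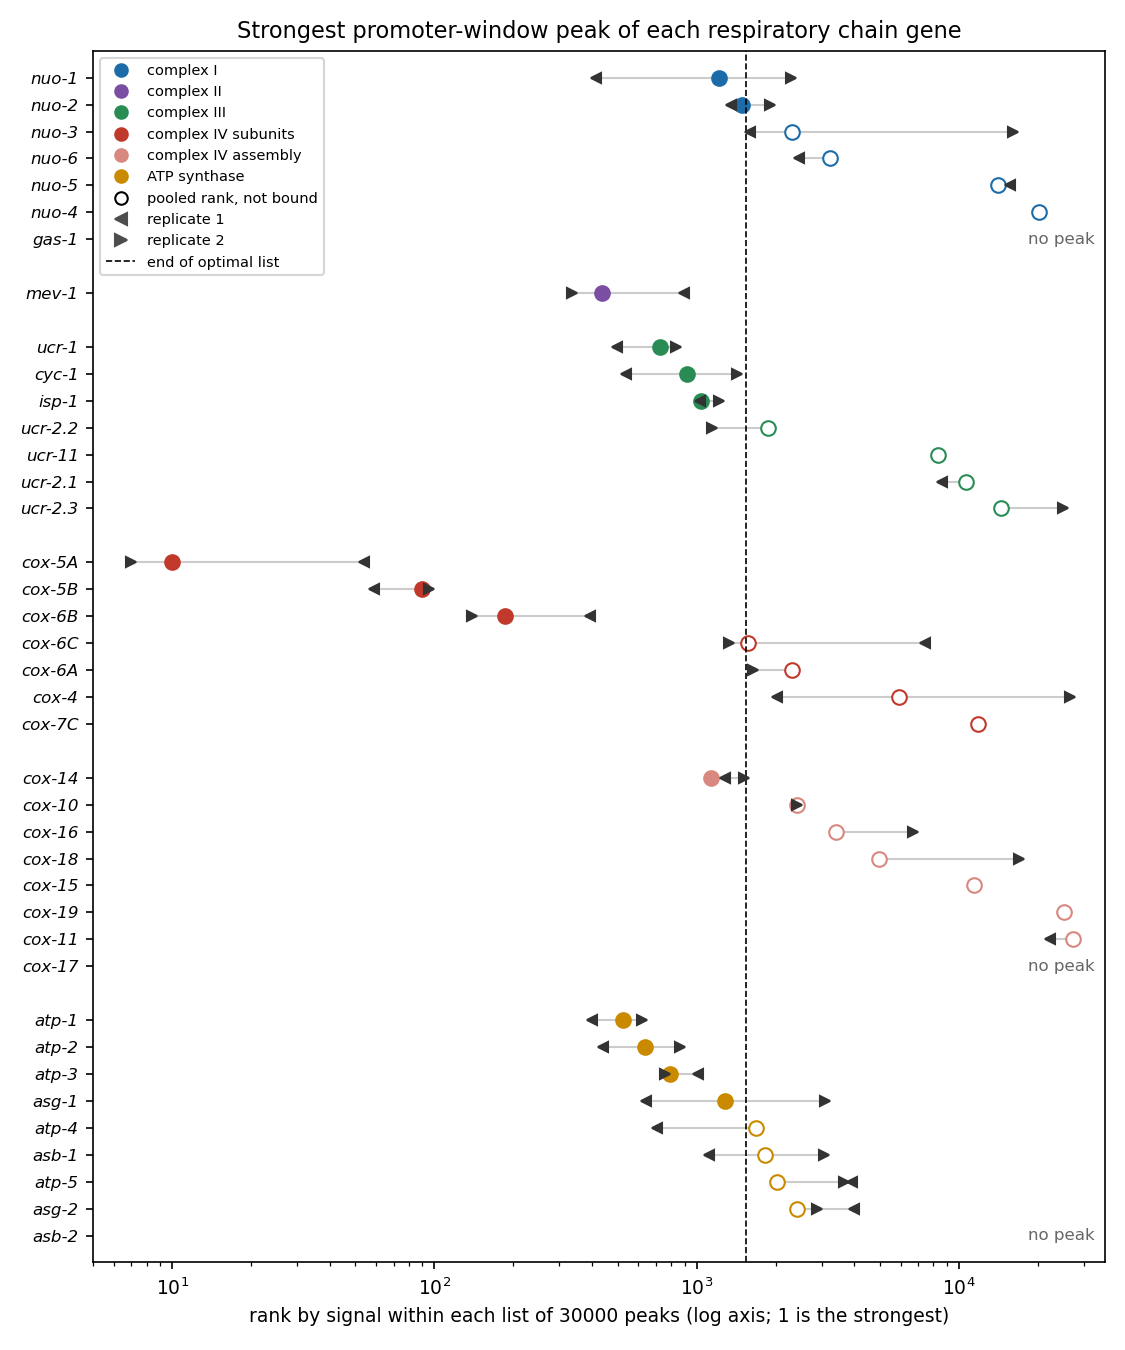
Rank by signal of the strongest pooled peak in the promoter window of each of the 39 members (circles, filled where bound, coloured by complex) on a log axis, with the ranks of the matching peaks in replicate 1 and replicate 2 (triangles). The dashed line is the end of the optimal list at 1546. The cox-5A, cox-5B and cox-6B peaks stand to the left at pooled ranks 10, 90 and 186, and gas-1, cox-17 and asb-2 have no pooled peak.

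Bound peaks of the members were of ordinary strength for this list, apart from a few at complex IV genes. The median rank of the 14 peaks was 757.5 of 1546 and ranged from 10 to 1494, while the median over all 1522 nuclear optimal peaks was 783.5. The median signal was 42.7 at the members and 41.6 over all nuclear optimal peaks. For the strongest peak of each of the 1830 bound nuclear genes, the closer like for the members, the median rank was 693.5 and the median signal 45.6. The members thus lay slightly above the one median and slightly below the other in strength. Complex IV subunits had the 3 strongest peaks of the set, with a median signal of 155. The median signal was 45.0 for the 4 bound ATP synthase genes, 36.4 for the 3 of complex III and 26.8 for the 2 of complex I. These medians rest on 2 to 4 genes each.

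Complex IV, cytochrome c oxidase, passes electrons to oxygen, and its nuclear subunits surround a core encoded in mitochondria. Of its 7 subunit genes, 3 were bound (42.9%). The peak of cox-5A (chromosome III 12905063 to 12905307) had a pooled signal of 271 and ranked 10, or 8 among nuclear peaks. It ranked 54 in replicate 1 (signal 52.5) and 7 in replicate 2 (signal 222), so it was near the top of both lists. The summit lay 283 bp upstream of the only annotated start, and no other gene's window held it. The peak of cox-5B had a signal of 155 and ranked 59 and 95 in the replicates, with its summit 49 bp upstream of the start. The peak of cox-6B (chromosome III 2785970 to 2786124) had a signal of 110 and ranked 391 and 139. Its summit lay 145 bp upstream of the nearer of its annotated starts, and it was also in the windows of nduc-2, a complex I subunit gene, and of Y71H2AM.20, whose start was nearer, at 109 bp. The other subunit genes were not bound. The strongest peak of cox-6C fell just below the end of the optimal list (pooled rank 1569, signal 23.5) and ranked 7451 in replicate 1 and 1334 in replicate 2. That of cox-6A had a pooled rank of 2317, that of cox-4 5935 and that of cox-7C 11801. The complex IV subunit genes thus spread from rank 10 to rank 11801 of the pooled list.

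Complex III, the cytochrome bc1 complex, carries electrons from ubiquinol to cytochrome c. Of its 7 genes, 3 were bound, and they include both electron-carrying nuclear subunits. The peak of ucr-1, a core protein gene, had a pooled signal of 44.1 (rank 723) and ranked 499 and 832 in replicates 1 and 2. The peak of cyc-1, the cytochrome c1 gene, had a signal of 36.4 (rank 916) and ranked 539 and 1432. That of isp-1, the Rieske iron-sulfur protein gene, had a signal of 32.8 (rank 1040) and ranked 1028 and 1216. All these replicate ranks lay within the first 1546. The core protein gene ucr-2.2 was not bound, with a pooled rank of 1876, a rank of 1141 in replicate 2 and no match within 100 bp in replicate 1. The strongest peaks of ucr-11, ucr-2.1 and ucr-2.3 had pooled ranks of 8292, 10608 and 14466.

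Complex II, succinate dehydrogenase, was represented by mev-1, its cytochrome b subunit. The peak of mev-1 (chromosome III 10334015 to 10334304) had a pooled signal of 66.2 (rank 435) and ranked 898 in replicate 1 and 334 in replicate 2. Its summit was 117 bp upstream of the start and also lay in the window of the divergent gene jmjd-4. Of the 4 other succinate dehydrogenase genes, sdha-2, a flavoprotein subunit gene, was bound, close to the end of the list (rank 1514, signal 24.2). The strongest peaks of its paralog sdha-1, of sdhb-1 and of sdhd-1 had pooled ranks of 6917, 4780 and 2696. With these genes added, 15 of 43 (34.9%) were bound.

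Complex I, NADH dehydrogenase, had 2 of 7 members bound, both weakly. The peak of nuo-1, the flavoprotein that takes electrons from NADH, had a pooled signal of 29.1 (rank 1214) and ranked 412 in replicate 1 and 2296 in replicate 2. Its summit was 404 bp upstream of nuo-1 and 229 bp upstream of the divergent ribosomal protein gene rpl-36.A, and it also lay in the window of nbs-1. The peak of nuo-2, a core subunit gene, had a signal of 24.5 (rank 1494), the lowest of the bound members, and ranked 1347 and 1912. With the 1546 strongest peaks of replicate 2 alone (without replicate 1), 0 complex I members were bound, and with those of replicate 1 alone 2 were. Of the others, nuo-3 and nuo-6 had pooled ranks of 2305 and 3225, nuo-5 and nuo-4 had 14107 and 20199, and gas-1, a core subunit gene on X, had no pooled peak in its window. The further complex I genes named ndu- or nda-, with lpd-5, were bound at 9 of 28 (32.1%), which gives 11 of 35 (31.4%) for complex I as a whole.

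The ATP synthase is a rotary enzyme with a catalytic F1 head and a membrane F0 part. Of its 9 members, 4 were bound (44.4%). With the 3092 strongest pooled peaks, a list chosen after seeing the data, 8 of the 9 had a peak. The same list held a peak for 59.0% of all members and 14.6% of all nuclear genes. The peaks of atp-1 and atp-2, which encode the alpha and beta subunits of the head, had pooled signals of 56.3 (rank 526) and 48.7 (rank 636). The atp-1 peak ranked 400 and 617 in the replicates, and the atp-2 peak 439 and 864. The peak of atp-3, which encodes the stalk protein that confers oligomycin sensitivity, had a signal of 41.2 (rank 792) and ranked 1010 and 755. The peak of asg-1, a subunit g gene, had a signal of 27.9 (rank 1284) but ranked 644 in replicate 1 and 3087 in replicate 2. Its summit was 9 bp downstream of the start of the divergent mitochondrial ribosomal protein gene mrps-15 and 333 bp upstream of asg-1. Below the end of the list came atp-4 (coupling factor, rank 1685), asb-1 (1827), atp-5 (subunit d, 2030) and asg-2 (2418). In the replicate 1 list alone asb-1 (rank 1117) and atp-4 (rank 706) were within the first 1546, and in replicate 2 the asb-1 match ranked 3070 and atp-4 had none.

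The assembly genes of complex IV had 1 of 8 bound (12.5%). This was cox-14, with a pooled signal of 30.9 (rank 1130) and ranks of 1284 and 1513. Its summit lay 185 bp upstream of cox-14 and 111 bp upstream of the divergent gene rde-4, which acts in RNA interference. The strongest peaks of the remaining assembly genes with any peak had pooled ranks from 2422 (cox-10, which farnesylates heme) to 27126 (cox-11, a copper insertion factor), and cox-17, the copper chaperone gene, had none.

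**Figure D2:**
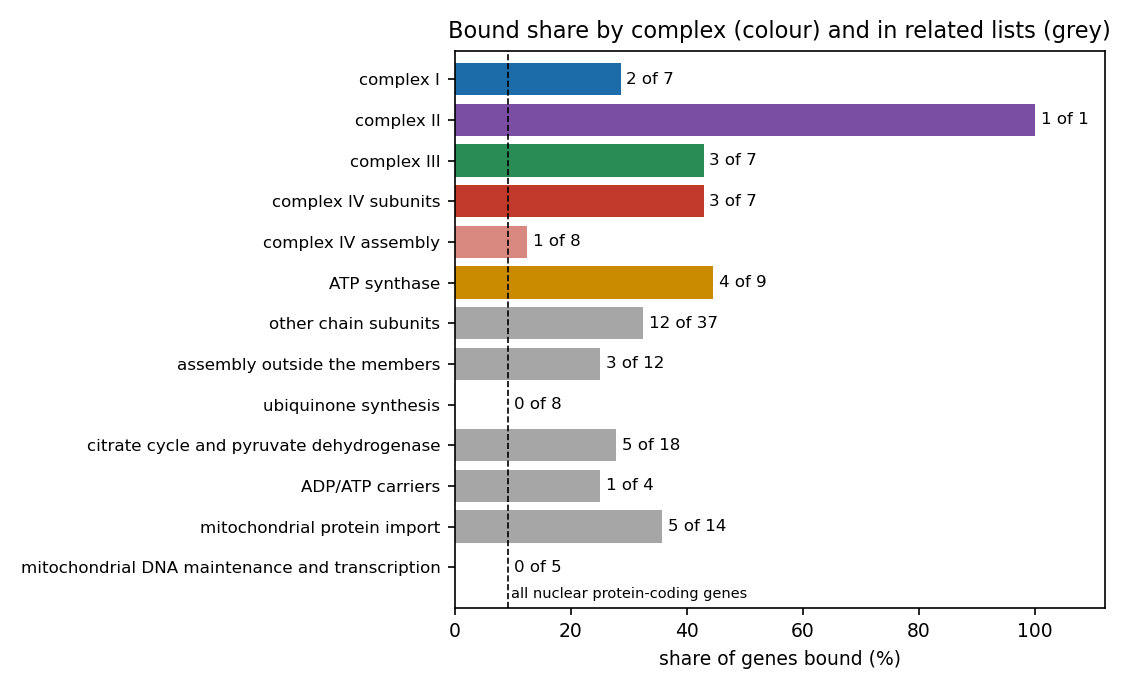
Percentage of genes bound in each complex (coloured bars) and in the related lists (grey bars), with the counts at the bar ends. The dashed line is the share of all nuclear protein-coding genes, 9.16%. Complex II is a single gene, and the assembly genes at 1 of 8 lie closest to the line among the coloured bars.

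Every bound member had a matching summit within 100 bp in both replicate lists, as did 1369 of the 1522 nuclear optimal peaks. In 11 of the 14 (78.6%) the match was among the 1546 strongest peaks of both replicates, against 59.0% of nuclear optimal peaks (898 of 1522). The exceptions were nuo-1, nuo-2 and asg-1, which ranked below 1546 in replicate 2. Counted by window and not by peak, 28.2% of members (11 of 39) had a peak among the 1546 strongest of both replicates, against 6.35% of all nuclear genes. The count was 16 (41.0%) with replicate 1 alone, against 8.84% of all, and 13 (33.3%) with replicate 2 alone, against 8.76%. The members ranked a little higher in replicate 1. The median rank of the 14 matches was 519 in replicate 1 and 848 in replicate 2, and 10 (71.4%) ranked higher in replicate 1. Over the nuclear optimal peaks with a match in the given replicate, the median was 757 in replicate 1 (1387 peaks) and 779.5 in replicate 2 (1502 peaks). These are different subsets, since peaks without a match have no rank. Of the nuclear optimal peaks matched in both replicates, 47.6% (652 of 1369) ranked higher in replicate 1. The mev-1, cox-5A, cox-6B and atp-3 peaks ranked higher in replicate 2. Across the 14 peaks the replicate ranks had a Spearman rho of 0.613, against 0.546 over the 1369 nuclear optimal peaks matched in both. These are descriptions across peaks, and the peaks were selected on the pooled reads of the same replicates.

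Among the 25 unbound members, 22 had a peak of the pooled list in the window and gas-1, cox-17 and asb-2 had none. For these 22 the median pooled rank was 4183, from 1569 to 27126, against 12044 over all unbound nuclear genes with a pooled peak. A match within 100 bp existed in both replicates for 6 (nuo-3, cox-4, cox-6C, asb-1, asg-2 and atp-5). For 11 it existed in a single replicate, and for 5 (nuo-4, ucr-11, cox-7C, cox-15 and cox-19) in neither. The same split over all unbound nuclear genes was not counted, so it cannot be called particular to the members. The end of the optimal list ran through the set without a gap. The members nearest to it were nuo-2 at 1494 and asg-1 at 1284 inside, and cox-6C at 1569 and atp-4 at 1685 outside.

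Summits at the bound members lay mostly upstream of the gene. The median position was -169.5 bp (negative values are upstream), from -404 bp at nuo-1 to 36 bp at atp-1, and 12 of 14 were upstream, the exceptions being atp-1 and atp-3 (5 bp downstream). Over all bound nuclear genes the median was -221.5 bp, so an upstream summit was not particular to the members. The window itself reached 1000 bp upstream and 500 bp downstream, and the share of upstream summits over all bound genes was not counted. The peaks of nuo-2, cyc-1, cox-5A and cox-5B lay in no other gene's window. The nuo-2 summit, 154 bp upstream of its start, nevertheless lay within T10E9.14, a gene on the same strand that ends 19 bp before nuo-2. The other 10 (71.4%) also lay in the window of a gene on the opposite strand, while 61.3% of all bound nuclear genes shared their strongest peak with any other gene. In 5 of these, nuo-1, isp-1, cox-6B, cox-14 and asg-1, the neighbour's start was nearer. The isp-1 summit, for example, was 272 bp upstream of isp-1 and 62 bp upstream of islo-1. Which gene of such a pair a shared peak belongs to cannot be told apart. Annotated starts of C. elegans genes are often sites of trans-splicing, so the true start may lie further upstream, which was not tested for these genes.

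**Figure D3:**
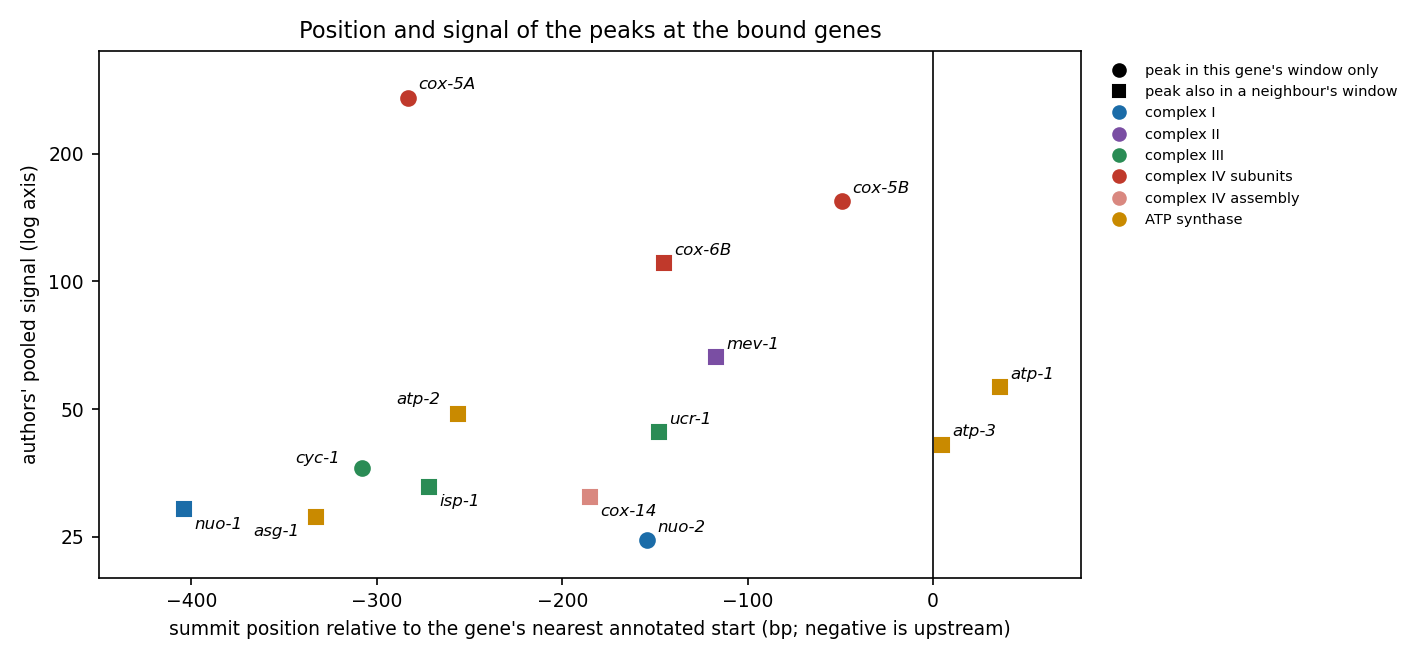
Summit position relative to the nearest annotated start of the gene (horizontal axis, bp, negative upstream) against the authors' pooled signal (vertical log axis) for the 14 bound members, coloured by complex. Circles are the 4 peaks in the window of the member only and squares the 10 shared with a neighbour. The cox-5A point has the highest signal, 271, at -283 bp, and only atp-1 and atp-3 lie downstream of the start.

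Few of the bound respiratory chain summits carried the E2F-type motif. Within 100 bp of the summit it was found at 2 of 14 (14.3%), namely nuo-2 and cox-5B, against 37.2% of nuclear optimal summits (566 of 1522). At nuo-2 the match was centred 2 bp from the summit. At cox-5B 2 overlapping matches lay 80 and 83 bp upstream of the summit. Within 250 bp of the summit 3 member peaks had a match, but the share over all nuclear optimal summits was not counted at that distance. Among the 22 unbound members with a pooled peak, the strongest summit had the motif within 100 bp at 1, cox-15 (4.55%), against 8.69% of unbound nuclear genes with such a peak (714 of 8221). The CHR-type motif was found within 100 bp of the summit at 7 of 14, namely nuo-1, mev-1, isp-1, cox-5A, cox-5B, cox-14 and asg-1, against 64.3% of nuclear optimal summits. The cox-5A stretch printed above has its CHR-type match 82 bp from the summit and the mev-1 stretch has matches at 16 and 58 bp. The promoters of all members were also searched without regard to peaks, from 250 bp before to 50 bp after the outermost annotated start. The E2F-type motif was in 4 of 39 (10.3%; nuo-2, cox-5B, cox-6C and cox-19), against 9.20% of all nuclear genes, and the CHR-type motif in 26 (66.7%), against 68.9%. These shares differed little from those of all promoters. A match is only a run of letters, and its absence from a window says nothing about the factor.

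**Figure D4:**
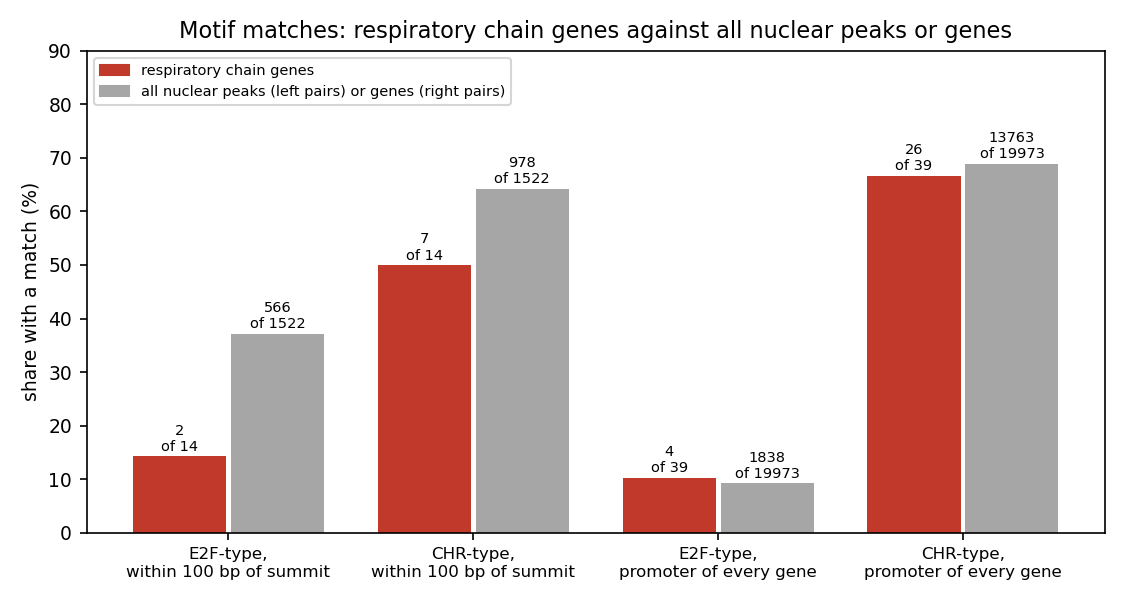
Percentage with a motif match for the respiratory chain genes (red) and for all nuclear optimal peaks or all nuclear genes (grey), with counts above the bars. At the bound summits 2 of 14 members hold the E2F-type motif against 566 of 1522 peaks, while across promoters the pairs stand at 4 of 39 against 1838 of 19973 and 26 of 39 against 13763 of 19973.

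The bound members were all on autosomes, as most bound genes were. None of the 5 members on X (gas-1, ucr-2.1, ucr-2.2, asb-2 and asg-2) was bound, where 1.14% of all genes on X were, so 0 of 5 adds nothing to that background. On the autosomes 14 of 34 members (41.2%) were bound, against 10.4% of all genes. Chromosomes I and III held 6 bound members of 11 each (54.5%), against 15.1% and 16.1% of all genes on them. Chromosome II had 1 of 3 members bound, IV 1 of 5 and V 0 of 4. The shares of all genes on these chromosomes were not counted, so nothing is read from these small numbers.

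In several families of paralogs an autosomal copy and a copy on X encode the same subunit. For subunit b of the ATP synthase, asb-1 on chromosome III, known as the germline form, had its strongest peak at pooled rank 1827 with a signal of 20.7, below the end of the list, and asb-2 on X had no pooled peak. For subunit g, asg-1 on chromosome I was bound at rank 1284 and asg-2 on X had a rank of 2418 with a signal of 16.55, so their ranks lay within the same stretch of the list. For the core protein of complex III the order was the other way, with ucr-2.2 on X at rank 1876, ucr-2.1 on X at 10608 and ucr-2.3 on chromosome III at 14466. For the core subunit encoded by gas-1, which had no pooled peak, the autosomal paralog nduf-2.2 was bound at rank 598 with a signal of 50.55, but the summit lay 735 bp upstream, was shared with dlc-1, and had no match within 100 bp in replicate 1. The strongest replicate 1 peak elsewhere in the nduf-2.2 window ranked 533 (signal 18.8). The pair of gas-1 and nduf-2.2, and that of sdha-1 on X and sdha-2 on chromosome I, were picked out after their values were seen. X as a whole had few peaks, so differences between copies and differences between chromosomes cannot be told apart.

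Some members lie close behind another gene on the same strand, as genes of C. elegans operons do. In runs of adjacent same-strand protein-coding genes with gaps of at most 500 bp, 12 members stood behind another gene. Of these, nuo-2 and cyc-1 were bound at their own window, though the first gene of the run was not. For 6 of the 25 unbound members (24.0%), the first gene of the run was bound. The cox-11 run starts with lin-54, the gene of a DNA-binding subunit of DREAM, with a peak signal of 122 (rank 151). The cox-18 run starts with Y55F3AR.2 (signal 89.9, rank 270) and the nuo-4 run with syf-2, a splicing factor gene (signal 76.9, rank 352). The ucr-11 run starts with dad-1, an oligosaccharyltransferase subunit gene (signal 58.1, rank 509), the cox-15 run with rpn-9, a proteasome subunit gene (signal 57.0, rank 519), and the nuo-5 run with Y45G12B.2 (signal 42.7, rank 759). Counting these, 20 of 39 members (51.3%) had a bound own or first window, against 12.3% of all nuclear genes. Both shares include genes bound at their own window. Adding first genes raised the count from 14 to 20 members, and from 1830 to 2464 of all 19973 nuclear genes. The share of all nuclear genes behind another gene, and of all unbound genes behind a bound first gene, was not counted. Whether these runs are transcribed together was not tested.

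Other genes of mitochondrial energy metabolism were bound at shares from 0 to 35.7%. Of 37 further subunit genes of the chain, 12 were bound (32.4%), led by nduc-2 (signal 110, the peak shared with cox-6B), nduf-11, a complex I subunit gene (99.6), and hpo-18, the epsilon subunit gene of the ATP synthase (79.3). The hpo-18 summit was nearer to the start of mcm-7, a replicative helicase gene, and that of nduc-2 to Y71H2AM.20. Cytochrome c was not among the bound, with cyc-2.1 at pooled rank 2276 and no pooled peak at cyc-2.2. Of 12 other assembly genes 3 were bound, namely coa-3 (signal 75.7), the copper chaperone gene sco-1 (54.96) and coa-5 (35.2). The coa-3 summit lay 609 bp upstream of coa-3 and 185 bp upstream of F35D11.4. Of 18 genes of the citrate cycle and pyruvate dehydrogenase 5 were bound (27.8%), led by dld-1, the shared dihydrolipoamide dehydrogenase (140), mdh-2, malate dehydrogenase (131), and aco-2, aconitase (60.5). The aco-2 summit lay 306 bp upstream of aco-2 and 25 bp upstream of eef-1B.1. Of the 4 ADP/ATP carrier genes ant-1.1 was bound (103) and the others were not. Of 14 genes of protein import 5 were bound (35.7%), led by ddp-1, a chaperone of the space between the membranes (256), tomm-20, a receptor of the outer membrane (211), and tin-9.2 (48.7). The tin-9.2 summit lay 141 bp upstream of tin-9.2 and 62 bp upstream of dli-1. None of the 8 ubiquinone synthesis genes and none of 5 genes of mitochondrial DNA maintenance and transcription was bound. These lists are small, and differences between them were not tested.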

How the data were processed

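In all, 4 ce11 peak lists were used: 1 for each of the 2 replicates, 1 for the pooled reads and the optimal IDR list. The deposited signal of each peak was assigned by the authors' peak caller against a control, per the deposited description files. Which aligner and caller were run was not given in the sources used here. Signal scales differ between lists, so peaks were compared between lists by rank. Lists on ce10 were not used, since the annotation and genome in hand are WBcel235, the same sequence as ce11, and no coordinate was converted.

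Summits were assigned to 29796 transcript starts of 19985 protein-coding genes (Ensembl release 115), and replicate summits were matched within 100 bp. Motifs and sequences were read from the RefSeq copy of WBcel235. The assignment and the motif search were checked on planted summits and made-up sequence. Python 3.11.15 with scipy 1.17.1 and matplotlib 3.10.9 was used. The members, lists and rules were chosen with earlier results of these data known. All bound members were named, and in each related list up to 3 bound genes of highest signal. Sequences were to be shown for peaks with an E2F-type match among the 8 strongest. The only such peak, at cox-5B, is on chromosome I, from which no sequence is shown, so those printed (the strongest bound peak per complex off chromosome I) were chosen after the values were seen. That of complex I, at nuo-1, was left out because it overlaps another annotated gene. Alternatives were other windows, nearest start, peak intervals, stronger and longer lists, each replicate alone, other motif and match distances, same-strand runs and the added succinate dehydrogenase genes. The list of 3092 peaks, the runs and the added genes were chosen after seeing the data. Nothing says whether the replicates were grown separately beyond their label as biological replicates.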

Additional observations from a re-analysis of the deposited data

How the results depend on the processing

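No paired analysis was possible because there is 1 group of 2 replicates and no contrast. Of 73 recomputed values 54 kept within 1.5 times their count and 19 moved. For the median rank the tolerance was 1 SD of the 2 replicate medians, 232.6 ranks. Those 2 medians were themselves among the values judged by it, so their labels say nothing about stability. The count of 14 bound members was unchanged with a narrower window (500 bp before and 250 bp after a start; 7.51% of all nuclear genes) and with peak intervals (9.48%). It was 16 with 2000 bp before and 1000 bp after (11.4%), 13 without replicate 1 and 16 without replicate 2, 9 by nearest transcript start (6.32%), 7 with the 773 strongest peaks and 23 with 3092 pooled peaks. By nearest start complex I had 1 bound member and the assembly genes 0. With the 773 strongest peaks complex I had 0, complex III 1, the assembly genes 0 and the ATP synthase 2. With 3092 peaks complex IV subunits had 5, the assembly genes 2 and the ATP synthase 8. The wider window gave 2 assembly genes. With the first gene of a same-strand run complex I had 4 and the assembly genes 4. With each replicate alone complex I had 0 to 2, complex III 3 to 4, complex IV subunits 3 to 4 and the ATP synthase 3 to 6. The median rank of 757.5 was 848 in replicate 2 (without replicate 1) and 519 in replicate 1 (without replicate 2). The E2F-type motif was at 1 member peak within 50 bp and at 1 with the stricter form that has 1 more T. The shares over all nuclear optimal summits were not counted for these 2 settings, so nothing is read from them. Shorter lists hold fewer peaks by construction; for the other moves the cause was not tested. Peak lists without read counts set the limit on precision here, since no counting error can be given for a peak.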

Other observations

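The subunits of the chain encoded in mitochondria are not members, and their counts cannot be read in the same way. Each of the 12 mitochondrial protein-coding genes had an optimal summit in its window, but these windows covered 84.6% of its 13794 bp (11664 bp), and 24 optimal peaks lay on it. Of the peaks in the full lists, 27 of the pooled list, 20 of replicate 1 and 26 of replicate 2 were mitochondrial, and the strongest ranked 1 in the pooled list, 1 in replicate 1 and 2 in replicate 2. Their dependence on the number of mitochondrial genomes per cell was not tested.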
